A study of Mus musculus with 12 samples.

Results

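The genes described here encode 10 transcription factors of naive T cells and thymocytes, Satb1, Tcf7, Lef1, Bach2, Foxo1, Foxp1, Bcl11b, Sox4, Id3 and Tox, measured in T cells sorted from mouse thymus. They were taken by gene symbol from the deposited expression table, and 10 of the 10 were found, among 13207 genes, in both tables of expression values it holds. The 12 RNA sequencing libraries fall into 4 groups of 3. Newly generated regulatory T cells (Treg) carried tdTomato and GFP and were sorted as CD73+ or as CD73–, 3 libraries of each. A further Treg group was GFP+ but tdTomato– and was not divided by CD73 (tdTomato– Treg). Conventional T cells (Tconv) of the newly generated kind were tdTomato+, GFP– and CD73–. All mice are labelled C57BL/6, all received tamoxifen at 10 μg per g of body weight and all were killed 7 days later, so no group is without tamoxifen. TdTomato marks cells labelled through that injection, and GFP was used to separate Treg from Tconv. The alleles that drive tdTomato and GFP, the age and sex of the mice and any pooling of animals are not given in the sources used here. Nothing in the labels says that the 3 libraries of a group, lettered A, B and D, came from separate animals, so p-values rest on a spread from library to library that may be technical only.

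These factors set and hold the T cell programme at successive stages. TCF-1 (from Tcf7) and LEF-1 (from Lef1) are high mobility group (HMG) box proteins that recruit beta-catenin or Groucho/TLE corepressors, Bcl11b commits progenitors to the T lineage, and Satb1 organises chromatin loops in thymocytes and takes part in opening Treg-specific super-enhancers. Sox4 and Tox are further HMG box proteins, of which Tox is needed for CD4 lineage development. Foxo1, Foxp1 and Bach2 are tied to quiescence, with Foxo1 acting on genes of survival and homing and Bach2 repressing genes of effector differentiation, while Id3 has no DNA-binding region of its own and blocks E proteins.

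Satb1, Tcf7, Lef1 and Sox4 had the largest differences among the 10 genes, and their start regions are shown because all 4 were lower by similar amounts in tdTomato– Treg than in Tconv. Each line is a RefSeq window of the GRCm38.p6 build, from 250 bases before to 50 bases after an annotated start site, on the strand of the gene. Where a gene has several start sites the window with the most motif matches was taken, and among equals the one nearest the 5′ end of the gene. Such windows were thus picked for holding matches. Capitals mark matches, on either strand, to CTTTGA (the start of the TCF/LEF consensus), CTTTGT (a core shared by SOX and TCF/LEF proteins), GTAAACA (forkhead), CCGGAAGT (ETS), TGACTCA (AP-1, also recognised by Bach proteins) and CAGGTG (an E-box). No 2 matches overlapped. The windows are chr17:51833241-51833540 (minus strand) for Satb1, chr11:52282546-52282845 (minus) for Tcf7, chr3:131156044-131156343 (plus) for Lef1 and chr13:28953650-28953949 (minus) for Sox4.
Satb1: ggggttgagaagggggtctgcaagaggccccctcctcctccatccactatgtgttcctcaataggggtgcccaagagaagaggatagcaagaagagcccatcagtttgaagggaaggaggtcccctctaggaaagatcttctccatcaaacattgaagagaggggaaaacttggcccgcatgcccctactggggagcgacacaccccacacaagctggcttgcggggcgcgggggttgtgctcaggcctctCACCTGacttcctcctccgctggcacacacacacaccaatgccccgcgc
Tcf7: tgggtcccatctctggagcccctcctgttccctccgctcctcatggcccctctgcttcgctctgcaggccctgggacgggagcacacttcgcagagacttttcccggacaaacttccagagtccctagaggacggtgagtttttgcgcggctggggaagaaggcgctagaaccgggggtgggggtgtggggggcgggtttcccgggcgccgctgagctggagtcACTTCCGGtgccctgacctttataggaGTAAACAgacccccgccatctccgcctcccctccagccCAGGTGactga
Lef1: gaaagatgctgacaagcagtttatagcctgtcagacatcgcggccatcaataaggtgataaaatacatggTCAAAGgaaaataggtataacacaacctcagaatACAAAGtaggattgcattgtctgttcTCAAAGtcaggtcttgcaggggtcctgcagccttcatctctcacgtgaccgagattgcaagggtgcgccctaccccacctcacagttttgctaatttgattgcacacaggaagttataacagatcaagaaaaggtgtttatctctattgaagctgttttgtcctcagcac
Sox4: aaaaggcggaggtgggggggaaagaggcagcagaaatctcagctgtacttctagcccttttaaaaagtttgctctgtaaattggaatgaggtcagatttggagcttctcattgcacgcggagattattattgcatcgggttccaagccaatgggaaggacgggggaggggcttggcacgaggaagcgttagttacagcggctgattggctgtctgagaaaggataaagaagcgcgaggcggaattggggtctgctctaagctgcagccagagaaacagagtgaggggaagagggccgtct

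The Lef1 window holds CTTTGA at 2 places and CTTTGT at 1, all read on the opposite strand, and its start site lies 45823 bases into the gene. Lef1 windows nearer the 5′ end of the gene hold 0 or 1 match. The Tcf7 start site shown lies 419 bases into the gene, and the Tcf7 window at the 5′ end holds 0 matches. In the Tcf7 window ETS, forkhead and E-box letters lie 26 bases before, at base 2 after and at base 40 after the start site, and the Satb1 window holds 1 E-box, at base 2. None of the 6 motifs is in the Sox4 window. Over all 32851 RefSeq windows of this length, CTTTGA is found in 16.0%, CTTTGT in 18.7%, GTAAACA in 3.65%, CCGGAAGT in 3.89%, TGACTCA in 5.20% and CAGGTG in 20.2%. RefSeq windows matched 9 of the 10 genes (not Tox), with 19 start sites in all, of which 4 hold CTTTGA, 5 CTTTGT, 1 GTAAACA, 1 CCGGAAGT, 0 TGACTCA and 5 CAGGTG. Windows of the same gene can overlap, and 1 CTTTGT site of Satb1 lies in 2 of its windows and is counted in both. A match is a string of letters and was not tested as a binding site.

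The deposited values are log2 CPM (counts scaled to a common library total), scaled by the authors separately in a table of the CD73+ and CD73– Treg and in a table of the tdTomato– Treg and Tconv. Tests were therefore made within a table, and levels set side by side across the tables carry no test. The median over 12410 genes in both tables was 4.22 to 4.33 log2 CPM in the 12 libraries. Effective depth, read from the value of a gene without counts, was 11000000 to 21400000 counts, which puts 391 to 62400 counts behind each value of the 10 genes. Lars2 took 16.1% to 32.4% of each library's summed CPM. Its share was 28.5% to 30.2% in CD73+ Treg and 22.9% to 28.8% in CD73– Treg. In tdTomato– Treg it was 30.8% to 32.4%, against 26.7%, 16.1% and 27.4% in Tconv libraries A, B and D. The part of this in the levels below was not tested. The sort was visible in the defining genes: Foxp3 averaged 9.19 log2 CPM in CD73+ Treg, 9.16 in CD73– Treg, 9.11 in tdTomato– Treg and 0.18 in Tconv, and Cd4 averaged 8.42 in CD73+ Treg, 8.55 in CD73– Treg, 8.44 in tdTomato– Treg and 9.28 in Tconv. The CD73 gene itself, Nt5e, was higher in CD73+ than in CD73– Treg (log2 fold change 1.75, SE 0.09, limma adjusted p = 1.2e-08). In bulk libraries fewer cells of a type and less RNA per cell cannot be told apart, which holds for every level below.

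Scaled by the summed exon length of the gene, Tcf7 had the highest level, at 169 CPM per kb in CD73+ Treg, 188 in CD73– Treg, 155 in tdTomato– Treg and 498 in Tconv. Bcl11b was next in CD73+ Treg (96.2 CPM per kb), CD73– Treg (102) and tdTomato– Treg (75.4), and Satb1 was next in Tconv (155). Id3 was last in the newly generated Treg and in Tconv, at 20.3, 20.0 and 19.7 CPM per kb in CD73+ Treg, CD73– Treg and Tconv. In tdTomato– Treg Sox4 was last, at 13.4 CPM per kb against 16.6 for Id3. These ranks rest on GENCODE M21 exon length (GRCm38), from which the coordinates below also come. For 7 of the 10 genes (all but Foxp1, Bcl11b and Id3) the annotation has a gene on the opposite strand, and whether the counting used strand is not given in the sources used here, so reads of those partners cannot be told apart. None of the genes that overlap these 7 has deposited values under its symbol. Foxp1 is overlapped by 4 genes on its own strand, of which 1 has deposited values.

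**Figure D1:**
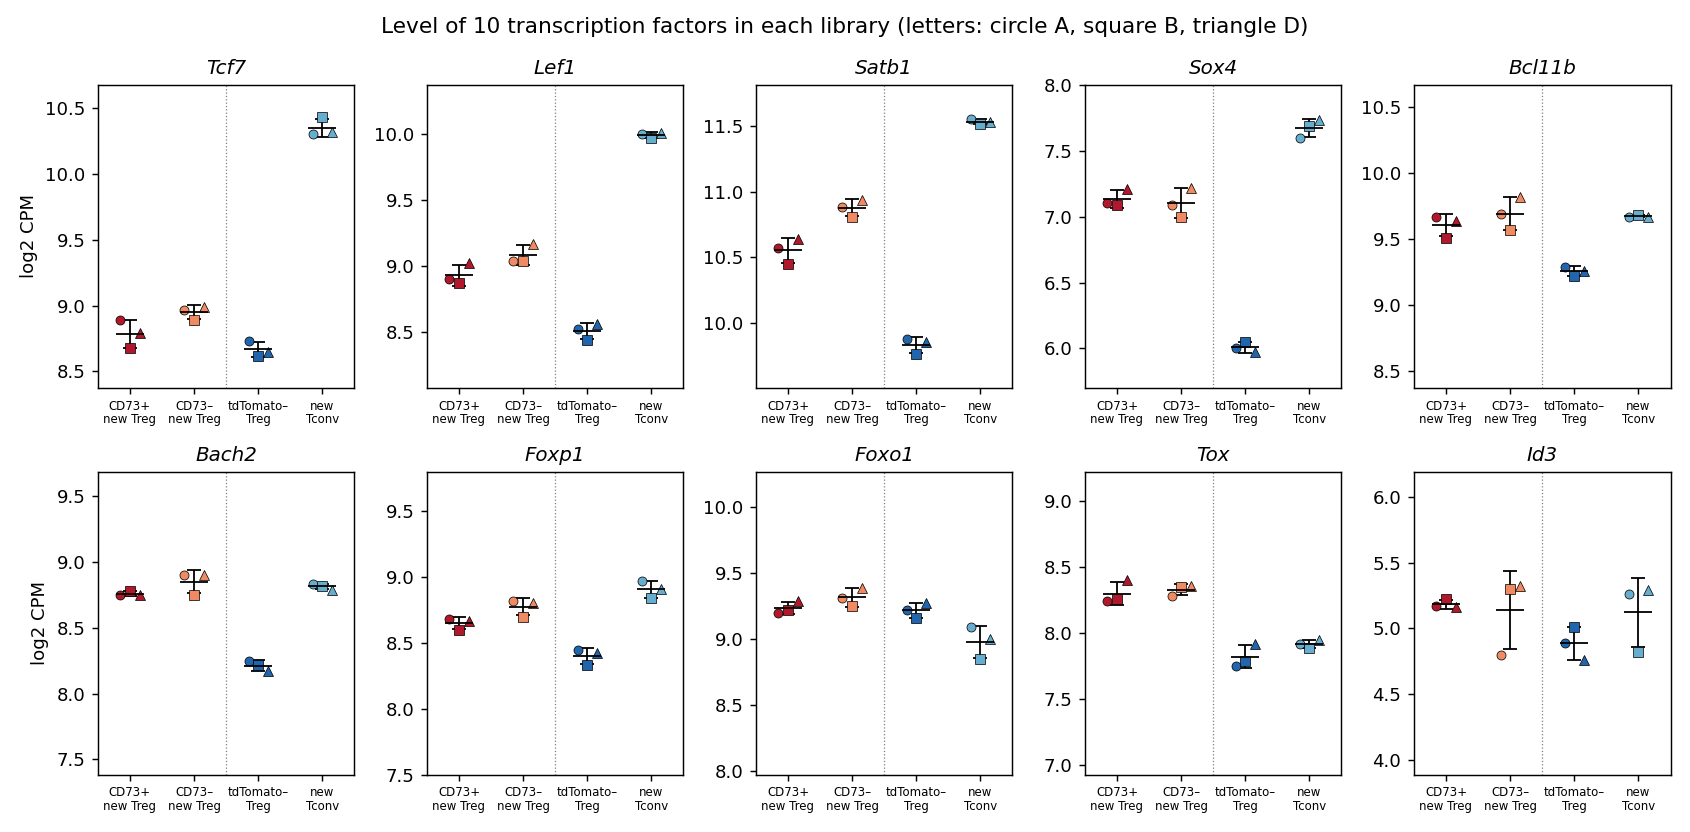
Log2 CPM (y axis, each panel spanning the same number of log2 units) of the 10 genes in each library, by sorted group (x axis); circles, squares and triangles are libraries of letters A, B and D, and black bars are the mean ± SD of 3 libraries. The dotted line separates the 2 tables, which were scaled separately; Tcf7, Lef1, Satb1 and Sox4 lie highest in Tconv and lowest in tdTomato– Treg, while Foxo1 lies lowest in Tconv.

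Between CD73+ and CD73– newly generated Treg, Satb1 was lower in the CD73+ cells and was the 1 gene of the 10 past the threshold, an adjusted p under 0.05 in a limma fit over all genes. The log2 fold changes of the other 9 lay between −0.16 and 0.04, with 7 of them below 0. Over all 11170 genes tested, 2.47% were past this threshold, 0.689% lower and 1.78% higher in CD73+ Treg. The median log2 fold change was −0.09 over the 10 genes and 0.01 over all genes tested. The groups did not overlap, with every CD73+ library below every CD73– library, for 3 of the 10 genes (Satb1, Lef1 and Foxp1). Over all genes, 8.18% did so in that direction and 18.2% in either direction.

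Satb1 (ENSMUSG00000023927.15, chromosome 17, 51736187 to 51833290, minus strand) had 10.57, 10.45 and 10.64 log2 CPM in CD73+ Treg libraries A, B and D, against 10.88, 10.81 and 10.94 in CD73– Treg. Every CD73+ library lay below every CD73– library, and library B was the lowest in each group. The log2 fold change was −0.32 (SE 0.05, 95% interval −0.44 to −0.21, limma adjusted p = 0.0037), a level 20.1% lower on the linear scale. Within letters the difference was −0.31, −0.36 and −0.30 for A, B and D. The call held in all 14 alternatives tried, with an adjusted p between 5.0e-05 and 0.048. In the authors' deposited table Satb1 is likewise the only 1 of the 10 genes with an adjusted p under 0.05 (log2 fold change −0.32, adjusted p = 0.0032).

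Tcf7 and Lef1, the related HMG box factors, were slightly lower in CD73+ Treg without passing the test. Lef1 (ENSMUSG00000027985.14, chromosome 3, 131110471 to 131224356, plus strand) had 8.90, 8.87 and 9.02 log2 CPM in CD73+ libraries A, B and D, against 9.04, 9.04 and 9.17 in CD73– libraries. The CD73+ libraries all lay below the CD73– libraries, by a narrow gap (log2 fold change −0.15, SE 0.05, limma adjusted p = 0.14). Libraries of the same letter deviated together between these groups, and when the letter entered the model as a replicate block the same difference of −0.15 had an adjusted p of 0.022. That block gave each letter the same effect in all 12 libraries, those of the other table included. It is therefore not a test paired within CD73+ and CD73– Treg alone. Tcf7 (ENSMUSG00000000782.15, chromosome 11, 52252371 to 52283014, minus strand) had 8.89, 8.68 and 8.79 log2 CPM in CD73+ Treg, against 8.97, 8.89 and 8.99 in CD73– Treg. CD73+ library A reached the lowest CD73– library, so the groups met (log2 fold change −0.16, SE 0.06, limma adjusted p = 0.14), although CD73+ was lower within all 3 letters, by −0.08, −0.21 and −0.20.

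Among the factors of quiescence, Foxp1 (ENSMUSG00000030067.17, chromosome 6, 98925338 to 99522721, minus strand) had 8.68, 8.60 and 8.67 log2 CPM in CD73+ Treg libraries A, B and D, against 8.82, 8.70 and 8.80 in CD73– Treg. The groups did not overlap, yet the difference did not pass the test (log2 fold change −0.12, SE 0.05, limma adjusted p = 0.22, and 0.052 with the replicate block). Bach2 had 8.75 to 8.78 log2 CPM in CD73+ Treg and 8.75 to 8.90 in CD73– Treg (log2 fold change −0.09, 95% interval −0.19 to 0.01), and Foxo1 had 9.20 to 9.29 in CD73+ Treg and 9.25 to 9.39 in CD73– Treg (−0.08, −0.20 to 0.04). Both pairs of groups overlapped. The intervals leave room for a Bach2 level lower by up to 0.19 on the log2 scale and a Foxo1 level lower by up to 0.20.

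The remaining 4 genes overlapped between CD73+ and CD73– Treg. Bcl11b was at 9.51 to 9.67 log2 CPM in CD73+ Treg and 9.57 to 9.82 in CD73– Treg, with a 95% interval of the difference of −0.21 to 0.04. Sox4 was at 7.09 to 7.21 in CD73+ Treg and 7.00 to 7.22 in CD73– Treg (−0.10 to 0.16), and Tox at 8.24 to 8.40 in CD73+ Treg and 8.28 to 8.36 in CD73– Treg (−0.15 to 0.09). Id3 had the widest interval, −0.24 to 0.33, since its CD73– libraries spread from 4.80 in library A to 5.30 in B and 5.32 in D, while the CD73+ libraries lay within 5.16 to 5.22. The signs of these small estimates for Sox4, Tox and Id3 changed under at least 1 alternative each.

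**Figure D2:**
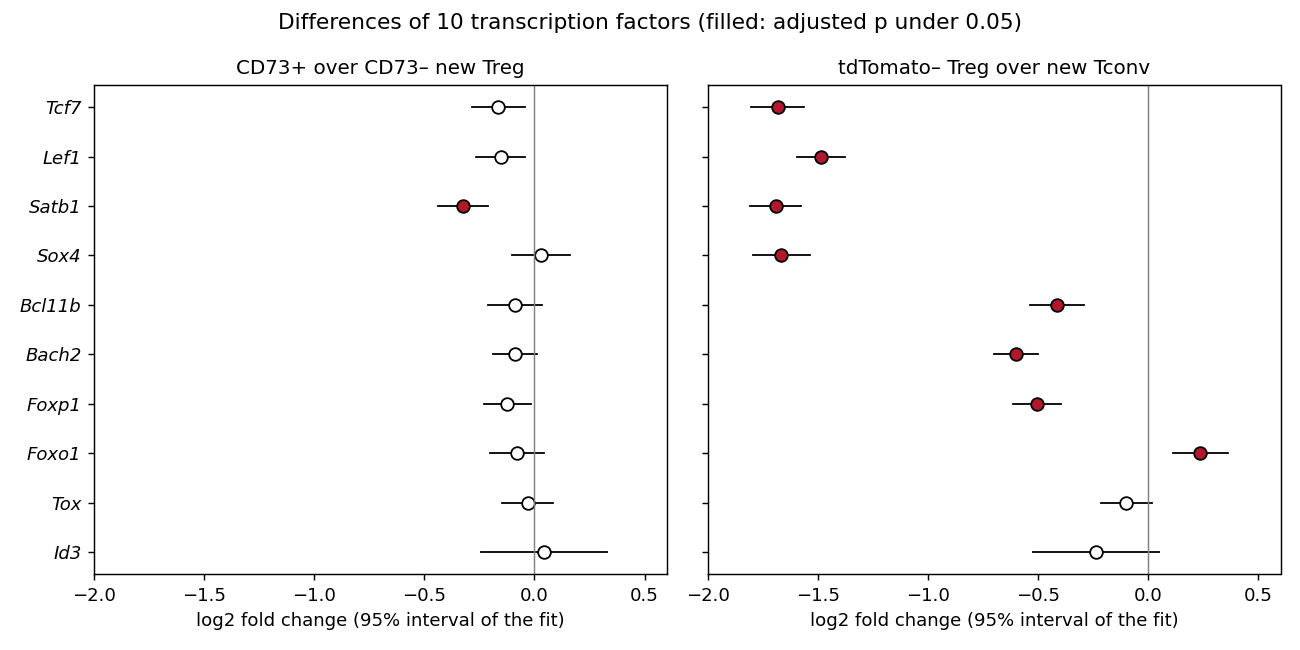
Log2 fold change (x axis, with the 95% interval of the limma fit as a line) of the 10 genes (y axis) for CD73+ over CD73– newly generated Treg (left) and tdTomato– Treg over Tconv (right); filled points have an adjusted p under 0.05. Satb1 is filled on the left, and 8 genes are filled on the right, of which Foxo1 alone lies above 0.

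Between tdTomato– Treg and newly generated Tconv, 7 of the 10 genes fell and 1 rose. The falls came in 2 sizes: Satb1, Tcf7, Sox4 and Lef1 had log2 fold changes of −1.69 to −1.49, a level 64.3% to 69.1% lower, and Bach2, Foxp1 and Bcl11b had −0.60 to −0.42. Foxo1 rose, and Tox and Id3 did not pass. This comparison changes much of the transcriptome: over all 11198 genes tested 52.1% were past the threshold, 25.7% lower and 26.4% higher in tdTomato– Treg, so that passing the test sets the genes little apart. A log2 fold change of −1.4 or lower, as 4 of the 10 genes had, was found in 2.8% of all genes tested, a limit chosen after the values were seen. The 10 genes were also chosen with earlier results of these data known, so this share is no test of them. The median log2 fold change was −0.55 over the 10 genes and −0.01 over all genes. For 7 of the 10 genes every tdTomato– library lay below every Tconv library, as did 30.5% of all genes, and for Foxo1 every tdTomato– library lay above, 60.9% of all genes having no overlap in either direction. The groups differ in lineage, in tdTomato labelling and in the CD73 gate at once, and these cannot be told apart here.

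For Satb1, tdTomato– Treg libraries A, B and D had 9.88, 9.77 and 9.86 log2 CPM, against 11.55, 11.51 and 11.53 in Tconv. The groups are far apart relative to their SDs of 0.06 and 0.02 (log2 fold change −1.69, SE 0.05, limma adjusted p = 9.4e-14). Tcf7 had 8.73, 8.62 and 8.65 log2 CPM in tdTomato– Treg, against 10.30, 10.43 and 10.32 in Tconv (log2 fold change −1.68, SE 0.06, limma adjusted p = 1.7e-13). The related gene Lef1 was less far apart, with 8.52, 8.44 and 8.56 log2 CPM in tdTomato– Treg, against 10.00, 9.97 and 10.01 in Tconv (−1.49, SE 0.05, adjusted p = 3.1e-13). Sox4 (ENSMUSG00000076431.4, chromosome 13, 28948919 to 28953713, minus strand), annotated as exon over all its 4795 bases, had 6.00, 6.05 and 5.97 log2 CPM in tdTomato– Treg, against 7.60, 7.69 and 7.73 in Tconv (−1.67, SE 0.06, adjusted p = 5.8e-13). In all 4 genes every tdTomato– library lay below every Tconv library.

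Sox4 and Satb1 had nearly the same difference here but not in the first comparison, where Satb1 had a log2 fold change of −0.32 (95% interval −0.44 to −0.21) and Sox4 one of 0.03 (−0.10 to 0.16). The 2 comparisons share no library. Whether Satb1 differed from Sox4 in its change was not tested.

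Bach2 (ENSMUSG00000040270.16, chromosome 4, 32238804 to 32586108, plus strand) had 8.25, 8.22 and 8.17 log2 CPM in tdTomato– Treg, against 8.83, 8.82 and 8.79 in Tconv (log2 fold change −0.60, SE 0.05, limma adjusted p = 1.4e-08). Foxp1 had 8.45, 8.33 and 8.42 log2 CPM in tdTomato– Treg, against 8.97, 8.84 and 8.91 in Tconv (−0.51, SE 0.05, adjusted p = 2.9e-07). Bcl11b (ENSMUSG00000048251.15, chromosome 12, 107910403 to 108003602, minus strand) had 9.29, 9.22 and 9.26 log2 CPM in tdTomato– Treg, against 9.67, 9.68 and 9.67 in Tconv (−0.42, SE 0.06, adjusted p = 1.3e-05). On the linear scale the 3 levels were 25.1% to 34.0% lower in tdTomato– Treg, and no libraries of the groups overlapped.

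Foxo1 (ENSMUSG00000044167.6, chromosome 3, 52268336 to 52353221, plus strand) went the other way, with 9.22, 9.16 and 9.27 log2 CPM in tdTomato– Treg, against 9.09, 8.85 and 9.00 in Tconv. The lowest tdTomato– library lay just above the highest Tconv library (log2 fold change 0.24, SE 0.06, limma adjusted p = 0.0028). The call held in all 14 alternatives, with a log2 fold change of 0.17 to 0.29 and an adjusted p of up to 0.032. Tox (ENSMUSG00000041272.11, chromosome 4, 6686353 to 6991557, minus strand) had 7.75, 7.79 and 7.92 log2 CPM in tdTomato– Treg, against 7.92, 7.89 and 7.95 in Tconv (−0.10, SE 0.05, adjusted p = 0.14). Without tdTomato– replicate D it was past the threshold (−0.15, adjusted p = 0.041), as it was with each library centred on its median gene (−0.16, adjusted p = 0.037). Id3 (ENSMUSG00000007872.3, chromosome 4, 136143497 to 136145755, plus strand) had 4.89, 5.01 and 4.76 log2 CPM in tdTomato– Treg, against 5.26, 4.82 and 5.29 in Tconv, so that Tconv library B lay among the tdTomato– libraries (−0.24, SE 0.14, adjusted p = 0.16). Without Tconv replicate B it was past the threshold (−0.39, adjusted p = 0.019).

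Set side by side over the 4 groups, with no test across the tables, the means of 4 genes ran upward in the order tdTomato– Treg, CD73+ Treg, CD73– Treg, Tconv. In that order Satb1 had 9.84, 10.55, 10.88 and 11.53 log2 CPM, Tcf7 8.67, 8.79, 8.95 and 10.35, Lef1 8.51, 8.93, 9.08 and 9.99, and Foxp1 8.40, 8.65, 8.77 and 8.91. The rest of the 10 genes took other orders. The share of all genes with this order was not computed, so the order does not set these genes apart. Between the neighbours CD73+ and CD73– Treg, which share a table, Satb1 alone of the 10 differed past the threshold in the fit without a block. With the replicate block, fitted over all 12 libraries of both tables, Lef1 passed as well (limma adjusted p = 0.022). Sox4, at 7.13 ± 0.07 in CD73+ Treg and 7.10 ± 0.11 in CD73– Treg, lay between 6.01 ± 0.04 in tdTomato– Treg and 7.67 ± 0.07 in Tconv (SD, n = 3 each). Bach2 and Bcl11b in CD73– Treg were at 8.85 ± 0.09 and 9.69 ± 0.13 log2 CPM, and in Tconv Bach2 was at 8.81 ± 0.02 and Bcl11b at 9.67 ± 0.01. Tox averaged 8.30 ± 0.09 in CD73+ Treg and 8.33 ± 0.04 in CD73– Treg, above both 7.82 ± 0.09 in tdTomato– Treg and 7.92 ± 0.03 in Tconv.

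Transcripts of other cells and states moved with the second comparison. Over all genes tested, 26.4% were higher and 25.7% lower in tdTomato– Treg than in Tconv. In the first comparison 1.78% were higher and 0.689% lower in CD73+ Treg. The marker counts below are to be read beside these shares. Of 9 tested markers of activated or recirculating Treg 8 rose in tdTomato– Treg and none fell, and their summed level was 178 to 202 CPM in tdTomato– Treg against 25.3 to 28.8 in Tconv. Klrg1 and Il10 of this list have no values in newly generated Treg and averaged −5.24 log2 CPM in Tconv, the level without counts. They passed the filter on low values only through tdTomato– Treg, which fixed their direction. Il1rl1, Cxcr3 and Gzmb averaged above 0 log2 CPM in tdTomato– Treg alone, so the count rests partly on the filter. Of 5 tested myeloid and dendritic markers 4 rose (57.5 to 69.5 CPM summed over 6 in tdTomato– Treg, against 27.3 to 31.8 in Tconv), and of 5 immediate early genes 4 rose and 1 fell (1241 to 2379 CPM in tdTomato– Treg against 390 to 901 in Tconv). In the first comparison 3 of 7 tested markers of activated Treg rose (48.8 to 52.1 CPM in CD73+ Treg against 31.8 to 34.1 in CD73– Treg). Of this list, Il1rl1 and Cxcr3 averaged −4.27 and −3.64 log2 CPM in CD73– Treg, below the level of 3 counts in each of those libraries. Of 7 tested markers of CD8 and double-positive thymocytes 1 fell in the first comparison (63.8 to 70.2 CPM summed over 9 in CD73+ Treg, against 67.7 to 131 in CD73– Treg). In the second comparison 2 of 7 rose and 1 fell (82.2 to 102 CPM in tdTomato– Treg against 78.7 to 82.0 in Tconv). All 4 Treg markers rose and all 3 tested CD4 T cell markers fell in tdTomato– Treg, and none of either list passed in the first comparison, where none of 5 immediate early, 5 myeloid, 2 B cell or 1 thymic epithelial genes passed. Both tested markers of innate-like T and NK cells rose in CD73+ Treg (9.91 to 10.9 CPM summed over 3, against 2.78 to 4.69 in CD73– Treg), and 1 rose and 1 fell in tdTomato– Treg (9.75 to 10.8 CPM, against 8.65 to 10.1 in Tconv). Zbtb16 averaged 1.07 log2 CPM in CD73+ Treg and −2.80 in CD73– Treg, the latter below the level of 3 counts in each CD73– library. Klrb1c, which was not tested, went the other way, at −2.15 in CD73+ Treg and −0.61 in CD73– Treg. Of the remaining lists, 1 of 2 tested B cell markers and the 1 tested thymic epithelial marker rose in tdTomato– Treg. B cell markers summed to at most 7.60 CPM and thymic epithelial markers to at most 7.69 CPM in any library. The part of any of these in the levels of the 10 genes was not tested.

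The genes around the 10 factors were examined as 6 lists, chosen with earlier results of these data known. Few of them moved between CD73+ and CD73– Treg, where 1.78% of all genes were higher and 0.689% lower. None of 14 tested paralogs, 15 TCF/LEF cofactors or 6 E proteins and partners was past the threshold. Of 10 genes of naive T cell trafficking and survival, listed for Foxo1, 2 rose. Whether any of them depends on Foxo1 in these cells was not tested. Il7r, the interleukin-7 receptor chain, was at 6.21 ± 0.20 log2 CPM in CD73+ cells and 5.48 ± 0.23 in CD73– cells (log2 fold change 0.73, SE 0.10, limma adjusted p = 0.0012). Igfbp4, a binding protein of insulin-like growth factors, was at 4.54 ± 0.07 in CD73+ cells and 3.99 ± 0.01 in CD73– cells (0.55, SE 0.09, adjusted p = 0.0023). Igfbp4 was not past the threshold when all 4 libraries lettered D were dropped (adjusted p = 0.082). Of 12 partners and opponents of Bach2 only Irf4, a factor of effector T cells, rose (0.35, SE 0.08, adjusted p = 0.027), a call that ended without any 1 of CD73+ replicates A and B and CD73– replicates A and D (adjusted p = 0.055 to 0.14). Of 19 other thymocyte factors Nfatc3, a factor of calcium signalling, fell (−0.17, SE 0.04, adjusted p = 0.049), and it was not past the threshold without any 1 of the 6 libraries (adjusted p = 0.061 to 0.19), with no filter (0.054), with quantile normalisation (0.063), with only the 2 groups compared (0.11) or with letter D dropped (0.26). The Irf4 call ended as well with only the 2 groups compared (adjusted p = 0.058) and with letter D dropped (0.22).

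Between tdTomato– Treg and Tconv calls were common in every list, as over all genes, of which 25.7% were lower and 26.4% higher with a median log2 fold change of −0.01, so the counts below describe the lists and set none apart. Of the cofactors of TCF-1 and LEF-1, 9 of 15 tested were lower and 3 higher in tdTomato– Treg, with a median log2 fold change of −0.33. Jup, the beta-catenin relative plakoglobin, was at 1.85 ± 0.40 log2 CPM in tdTomato– Treg and 4.50 ± 0.05 in Tconv (log2 fold change −2.65, SE 0.20, limma adjusted p = 1.1e-08). Bcl9, a coactivator of beta-catenin, fell by 1.35 (SE 0.09, adjusted p = 1.1e-09) and the corepressor Tle4 by 0.60 (SE 0.07, adjusted p = 1.6e-06). The related corepressors Tle2 and Tle1 rose, by 1.47 and 0.66 (SE 0.29 and 0.13, adjusted p = 5.0e-04 and 5.9e-04), as did Bcl9l (0.24, SE 0.10, adjusted p = 0.048), whose call ended without Tconv replicate B or any 1 of the tdTomato– replicates (adjusted p = 0.060 to 0.29). It also ended with median centring (0.19, adjusted p = 0.11), with no filter on low values (adjusted p = 0.052) and when the libraries lettered D were dropped (adjusted p = 0.059).

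Of the paralogs of the 10 genes, 5 of 14 tested were lower and 7 higher in tdTomato– Treg (25.7% and 26.4% over all genes), with a median log2 fold change of 0.40. Id2, which like Id3 blocks E proteins, was at 4.31 ± 0.12 log2 CPM in tdTomato– Treg and 5.80 ± 0.18 in Tconv (log2 fold change −1.49, SE 0.11, limma adjusted p = 9.4e-09). Tox4 fell by 0.39 (SE 0.06) and Bach1 by 0.34 (SE 0.07), while the forkhead genes Foxp4 and Foxo4 rose by 0.73 (SE 0.08) and 0.40 (SE 0.07). Sox12, of the same SOX subgroup as Sox4, went opposite to it, at 2.50 ± 0.18 log2 CPM in tdTomato– Treg and 1.24 ± 0.32 in Tconv (1.26, SE 0.24, adjusted p = 3.5e-04). Among E proteins and partners 3 of 6 tested rose (26.4% over all genes) and 1, Id2, fell (25.7%). The E protein gene Tcf4 was at 5.11 ± 0.02 log2 CPM in tdTomato– Treg and 4.23 ± 0.10 in Tconv (0.88, SE 0.09, adjusted p = 4.2e-07), and Lyl1, a partner of E proteins, at 0.95 ± 0.02 in tdTomato– Treg and −3.00 ± 0.60 in Tconv, with 2 of the 3 Tconv libraries at or under 3 counts. Id1 rose too (0.97, SE 0.36, adjusted p = 0.034), a call that ended when any 1 library but Tconv replicate B was left out (adjusted p = 0.065 to 0.11), with letter D dropped (0.23) and with quantile normalisation (adjusted p = 0.74).

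Of the partners and opponents of Bach2, 8 of 12 tested were higher and 2 lower in tdTomato– Treg, beside 26.4% higher and 25.7% lower over all genes, with a median log2 fold change of 0.68. Maf, a factor of effector T cells, was at 6.82 ± 0.20 log2 CPM in tdTomato– Treg and 2.77 ± 0.06 in Tconv (log2 fold change 4.05, SE 0.13, limma adjusted p = 1.1e-13), and Prdm1, which encodes Blimp-1 and is a gene that Bach2 represses, at 4.71 ± 0.31 in tdTomato– Treg and 1.20 ± 0.10 in Tconv (3.51, SE 0.19, adjusted p = 8.3e-11). Batf rose by 1.33 (SE 0.15, adjusted p = 1.6e-06). Nfe2l2, which encodes NRF2, fell by 1.35 (SE 0.08, adjusted p = 6.7e-10), and so did Mafk, a small Maf partner of Bach2 (−0.50, SE 0.18, adjusted p = 0.030), whose call ended without any 1 of tdTomato– replicates B and D and Tconv replicates A and D (adjusted p = 0.069 to 0.13) or with letter D dropped (0.25). Prdm1 is also on the list of activated Treg markers given above, and Jun, another of the 8 (2.24, SE 0.38, adjusted p = 1.2e-04), is also among the immediate early genes, of which 4 of 5 rose. The part of those lists in these counts was not tested.

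Among the genes of naive T cell trafficking and survival listed for Foxo1, 3 of 10 tested were higher and 4 lower in tdTomato– Treg than in Tconv, against 26.4% and 25.7% of all genes, with a median log2 fold change of −0.07. Cd55, which encodes a regulator of complement, was at 4.78 ± 0.21 log2 CPM in tdTomato– Treg and 3.24 ± 0.09 in Tconv (log2 fold change 1.55, SE 0.14, limma adjusted p = 7.8e-08), and Il6ra, an interleukin-6 receptor chain, rose by 0.35 (SE 0.07, adjusted p = 4.8e-04). Igfbp4 fell by 3.71 (SE 0.09, adjusted p = 1.5e-15), Dapl1 by 1.68 (SE 0.39, adjusted p = 0.0017) and Il7r by 0.42 (SE 0.10, adjusted p = 0.0024). Il7r and Igfbp4 thus had opposite signs in the 2 comparisons. Of 19 other thymocyte factors 9 fell (25.7% over all genes) and 5 rose (26.4%), and Egr1, 1 of the 9, is also among the immediate early genes. Ikzf1, which encodes Ikaros, fell by 1.24 (SE 0.04, adjusted p = 1.8e-13), Zbtb7b, the CD4 lineage factor ThPOK, by 0.76 (SE 0.06) and Ets1 by 0.50 (SE 0.05), while Myb, Gata3 and Gfi1 rose by 1.02, 0.49 and 0.96 (SE 0.06, 0.05 and 0.10).

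**Figure D3:**
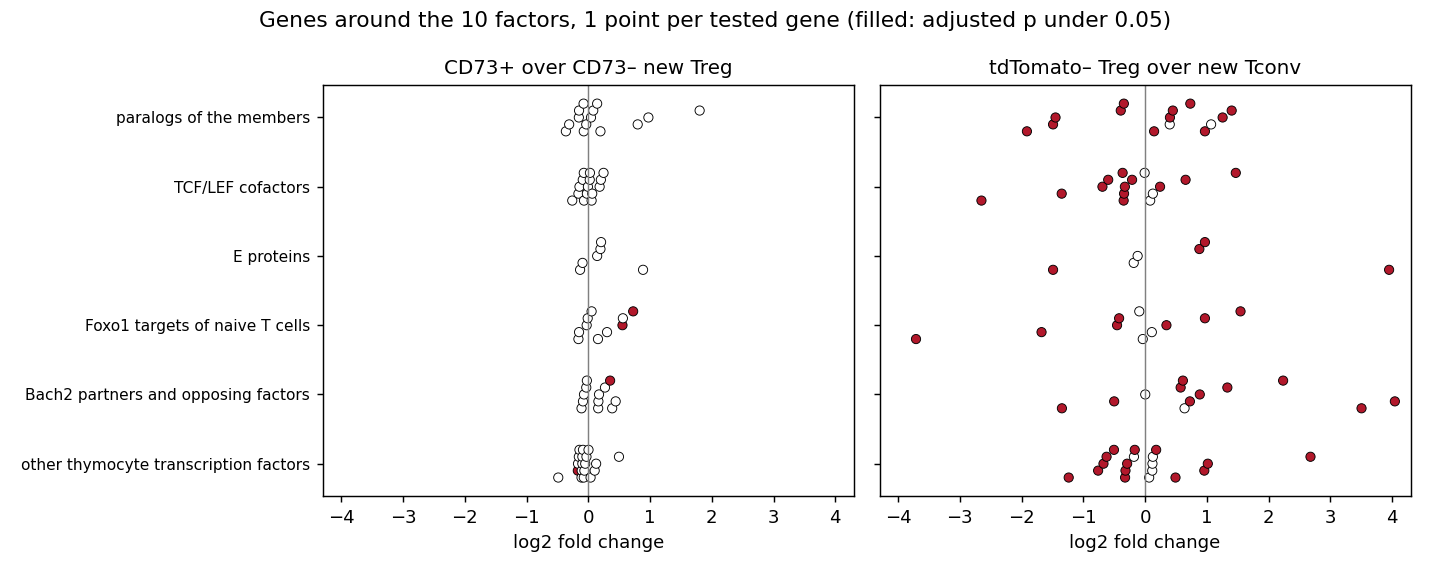
Log2 fold change (x axis) of each tested gene of 6 lists (y axis, points shifted vertically for legibility) for CD73+ over CD73– newly generated Treg (left) and tdTomato– Treg over Tconv (right); filled points have an adjusted p under 0.05. On the left 4 genes are filled, and on the right both directions are filled in every list.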

How the data were processed

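RNA sequencing of 12 libraries of sorted mouse thymocytes, 3 in each of 4 groups assigned from the labels, was analysed from one deposited table. Its library values are log2 CPM made by the authors, a unit read from the values; STAR, RSEM, limma and the build mm10 are named, without versions, in the submitters' processing notes. The deposited table also holds the authors' log2 fold changes and their p-values and adjusted p-values, which are printed only where named. Group means were fitted with limma 3.58.1 (trend, R 4.3.3) on the deposited log2 values of all genes that reached 0 log2 CPM in 3 or more libraries, over the 12 libraries, without a block, with Benjamini-Hochberg adjustment over all genes tested and a threshold of 0.05. Contrasts were made only within each of the 2 separately scaled tables. The fit was tested on simulated data.

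The named genes are the 10 factors, the nearest profile to each, Foxp3, Cd4 and Nt5e as checks of the sort, and up to 3 genes per list, direction and comparison by p-value among those past the threshold. A gene that this rule names is not reported here. The members and lists were chosen with earlier results of these data known. Libraries of the same letter had correlated deviations from their group means over 9942 genes between CD73+ and CD73– Treg (r = 0.15, 0.27 and 0.22 for A, B and D, all above the limit of 0.1), and the letters were taken to pair those groups. Alternatives were no or a stricter filter, log2(CPM + 1), quantile normalisation, median centring, only the 2 groups compared, a replicate block, and leaving out each library and letter D. The block gave each letter the same effect in all 4 groups, across both tables. Effective depths of 11000000 to 21400000 counts were inferred from the value of genes without counts, taken as 0.5 counts, and read totals were not used here.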

Additional observations from a re-analysis of the deposited data

How the results depend on the processing

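Each log2 fold change of the 10 genes was recomputed under 14 alternatives per comparison. Of 140 values for CD73+ against CD73– Treg, 135 kept direction and side of the threshold, 1 (Lef1, replicate block) passed it and 4 changed sign. These 4 were Sox4 without CD73+ replicate D (−0.0083) and without CD73– replicate B (−0.022), Id3 without CD73– replicate A (−0.13) and Tox with quantile normalisation (0.0047). None had passed the test. Over the alternatives that leave out 1 library, Sox4 ranged from −0.022 to 0.088 and Id3 from −0.13 to 0.13. Of 140 values for tdTomato– Treg against Tconv, 137 kept both and 3 passed the threshold, which are the Tox and Id3 values given above. The count of the 10 genes called was 2 with the replicate block, against 1 without it, and was 8 to 9 for tdTomato– Treg against Tconv.

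Over all genes, the 276 calls between CD73+ and CD73– Treg became 658 with the replicate block, 151 with only the 2 groups compared and 46 when all 4 libraries lettered D were dropped. Dropping a single library gave 101 to 369, with 105 for CD73+ replicate A, 101 for CD73+ replicate B, 161 for CD73– replicate A and 135 for CD73– replicate D. The cause was not tested. For tdTomato– Treg against Tconv the 5833 calls became 4549 to 6231, and the letters were not treated as pairing these groups (r = 0.12, 0.11 and 0.054), with 6231 calls under the block. Id3 had the fewest estimated counts of the factors described here, with as few as 391 in a library, CD73– Treg library A, at 4.80 log2 CPM. Its Tconv library B, at 4.82 log2 CPM, had 605 counts, and its CD73– Treg library D, at 5.32, had 440. The part of depth in the spread of Id3 between libraries was not tested.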

Other observations

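The gene whose profile over the 12 libraries was most like that of each factor was found among 10460 genes by the root mean square difference in log2 CPM after centring within each table, a description that shares libraries and has no test. For Satb1 it was Apol7e (0.071), with Tcf7 next (0.078), and for Tcf7 it was Cnn3 (0.072), with Satb1 next. Tet1, which encodes an enzyme that oxidises methylated DNA, was nearest to Sox4 (0.077) and ranked 3 for both Tcf7 (0.092) and Lef1 (0.070). Tet1 had a log2 fold change of −0.10 for CD73+ over CD73– Treg and −1.63 for tdTomato– Treg over Tconv. Fam78a was nearest to Lef1 (0.061), Npc2 to Bach2 (0.043), Zfp592 to Bcl11b (0.032), Dcaf6 to Foxo1 (0.033) and Atg2b to Tox (0.041). Rasgrp1, an activator of Ras in T cell receptor signalling, was nearest to Foxp1 (0.029). The least close was Gnb1l to Id3 (0.10), the factor with the widest spread between libraries.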
